A study of Mus musculus with 8 samples.

Results

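NMDA and AMPA receptors are the ion channels through which glutamate excites neurons, and 10 genes of this system were followed in mouse cerebellum. They encode the obligatory NMDA receptor subunit (Grin1), its partner subunits (Grin2a, Grin2b, Grin2c and Grin2d), the AMPA receptor subunits (Gria1, Gria2, Gria3 and Gria4) and stargazin (Cacng2), an auxiliary protein that brings AMPA receptors to the synapse. The genes were chosen by symbol, and all 10 were found among the 17700 genes of the count tables and passed the filter on low counts that left 14191 genes. All mice were C57BL/6JN. The young group was 4 mice aged 19 to 22 weeks, the old group 4 mice aged 83 to 102 weeks, and each group had 2 males and 2 females. Frozen cerebellum of each mouse gave 1 library of total RNA depleted of ribosomal RNA. The labels name no drug, transgene or engineered allele in either group.

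NMDA receptors combine Grin1 with partner subunits that set how long the channel stays open and how strongly magnesium blocks it. During postnatal maturation of cerebellar granule neurons, the small excitatory neurons that receive mossy fibre input, Grin2b gives way to Grin2a and Grin2c. AMPA receptors carry fast transmission, and their Gria2 subunit makes them nearly impermeable to calcium. Bergmann glia, the astrocytes of the Purkinje cell layer, express Gria1 and Gria4 and little Gria2, while loss of Cacng2 gives the stargazer mouse, whose granule neurons lack synaptic AMPA receptors.

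The libraries held 6079485 to 7236720 gene counts. All 14 granule neuron and all 12 Purkinje cell markers listed passed the filter, and the granule markers summed to 5149 to 7114 CPM (counts scaled to library totals with TMM factors) in old and to 5605 to 8615 CPM in young libraries. The 7 liver genes listed, of which 5 passed the filter, summed to 2.68 to 72.4 CPM in old and 0.682 to 19.1 CPM in young libraries, and the 11 choroid plexus and ependyma markers to 126 to 1549 and 97.8 to 732 CPM. Of 8 brainstem neuron genes listed, 3 passed the filter. They summed to 2.04 to 40.9 CPM in old and 1.68 to 42.6 CPM in young libraries. The series' design text names liver, whereas each sample label names cerebellum. Member counts ran from 97 (Grin2d) to 6519 (Gria1), so counting error was small beside the spread between libraries for most. For Gria1 it averaged 1.46% of the value against a coefficient of variation of 22.0% over 8 libraries, and for Grin2d 9.39% against 15.7%.

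Per length of exon, Gria1 and Gria4 were the most abundant of the 10 transcripts and Grin2b and Grin2d the least. Levels were taken as CPM per kilobase of the union of annotated exons. Gria1 had 124 ± 27.2 CPM per kb (SD, n = 8), Gria4 77.7 ± 10.5 and Grin2c, the subunit characteristic of mature granule neurons, 43.1 ± 8.36. Gria2 followed at 37.3 ± 2.67 CPM per kb, Cacng2 at 35.3 ± 3.32 and Grin1 at 22.0 ± 1.90. Grin2a had 14.6 ± 2.14 CPM per kb, Gria3 14.4 ± 1.45, Grin2b 7.41 ± 1.68 and Grin2d 2.67 ± 0.421. Of the 9 neighbouring pairs in this order, 6 differed within libraries, each in the same direction in 8 of 8 (exact two-sided sign-flip permutation, p = 0.0078 each, the smallest possible with 8 libraries, adjusted p = 0.0117). Grin2c did not pass against Gria2 (adjusted p = 0.131 in the same exact permutation test), nor Gria2 against Cacng2 (adjusted p = 0.308), nor Grin2a against Gria3 (adjusted p = 0.875). The order came from the same libraries, so the test shows only how steady each difference was between them at this length.

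The order between rank 2 and rank 8 depended on the length used. With the longest coding transcript, or the longest coding sequence, in place of the union of exons, 4 of the 10 genes kept their rank. Gria1 stayed at rank 1, Grin2b at rank 9 and Grin2d at rank 10 under all 3 lengths. Gria4 was at rank 2 by exons and by transcript and at rank 4 by coding sequence. Gria2 moved from rank 4 to rank 3 and rank 2, and Grin2c from rank 3 to rank 5 and rank 7. Cacng2 moved from rank 5 to rank 6 and rank 3, and Grin1 from rank 6 to rank 4 and rank 5. Cacng2 over Grin1, a neighbouring pair that differed within libraries, was thus reversed by transcript, at 35.3 against 49.9 CPM per kb. Of the 4 Grin2 partner transcripts, per exon length, Grin2c made up 57.7% to 69.5% in the 8 libraries, Grin2a 20.0% to 22.8%, Grin2b 6.49% to 15.1% and Grin2d 2.94% to 5.73%. Per coding length the Grin2c share was 29.8% to 42.5% and the Grin2b share 16.4% to 32.9%. Of the 4 AMPA subunit transcripts, per exon length, Gria1 made up 42.9% to 54.6%, Gria4 29.0% to 33.5% and Gria2 10.7% to 17.9%. Per coding length Gria1 made up 31.9% to 44.6%, Gria4 23.7% to 26.5% and Gria2 23.1% to 35.04%, with Gria2 above Gria4 in all libraries but young 3. The Gria3 share was 5.01% to 6.28% per exon length and 6.64% to 7.997% per coding length.

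**Figure D1:**
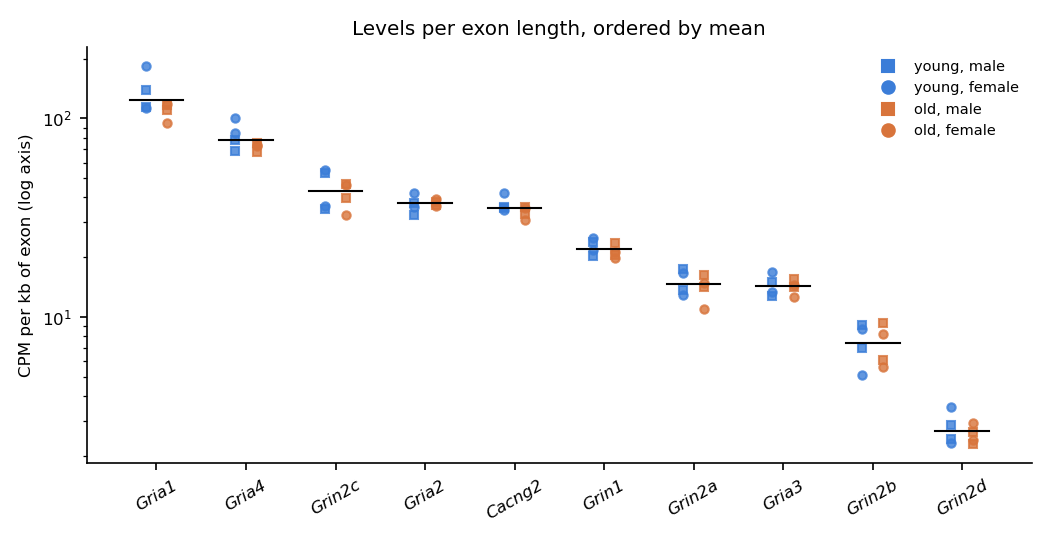
Level of each transcript in CPM per kilobase of exon (log axis), genes ordered by mean; each point is 1 library, coloured by age with squares for males and circles for females, and the line is the mean of 8. Gria1 and Gria4 lie above the other genes and Grin2d lies below them.

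The obligatory subunit Grin1 (chromosome 2, 25291181 to 25319187 in GRCm38) varied little. It had 231, 197, 211 and 243 CPM in young 1 to young 4 and 199, 205, 228 and 192 CPM in old 1 to old 4. Young and old values overlapped, with the highest in young 4 and the lowest in old 4. An antisense gene, Grin1os, shares 1307 bases with its exons, 13.5% of their length, and the strand setting of the counts is not given in the sources used here. Gm45441 likewise shares 9.66% of the exon length of Grin2d, and A730060N03Rik 5.86% of that of Cacng2.

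Grin2c (chromosome 11, 115249169 to 115267243) had 267, 176, 184 and 276 CPM in young 1 to young 4 and 200, 232, 237 and 165 CPM in old 1 to old 4. Each age held both high and low libraries, and the highest exceeded the lowest 1.67-fold. Grin2a (chromosome 16, 9567898 to 9995560), the other partner of the mature granule neuron, had 314, 245, 233 and 298 CPM in the young libraries and 254, 265, 293 and 197 CPM in the old. Grin2c and Grin2a lay on the same side of their means in 8 of 8 libraries, and Grin2c and Grin1 in 7 of 8.

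Grin2b (chromosome 6, 135713233 to 136173511), the partner subunit that gives way in maturing granule neurons, ran the other way. It had 174, 227, 217 and 127 CPM in young 1 to young 4 and 232, 139, 151 and 205 CPM in old 1 to old 4. In 0 of 8 libraries did Grin2b lie on the same side of its mean as Grin2c or Grin2a. Grin2d (chromosome 7, 45831883 to 45878378), a subunit of interneurons in the adult brain, ranged from 15.3 to 23.5 CPM and was on Grin2b's side in 8 of 8 libraries.

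Grin2b and Grin2c varied more between libraries than most genes of like level. Their log2 CPM had an SD of 0.34 and 0.28 over the 8 libraries. Among 1236 genes whose mean log2 CPM lay within 0.5 of that of Grin2b, 98.7% varied no more than it did, and the value for Grin2c was 97.3% of 1022 genes. Grin2a stood at 91.8% and Grin1 at 46.8%, while Grin2d, with far fewer counts, stood at 54.9%.

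RefSeq promoter sequences of GRCm38.p6, 250 bases before to 50 after the annotated start, matched 6 of the 10 genes. Those of Grin2c and Grin1, which moved together across libraries, and of Grin2d, which moved against them, are shown with each CpG, the site of DNA methylation and hydroxymethylation, in capitals. They lie on the minus strand at chr11:115267194-115267493, chr2:25319138-25319437 and chr7:45866632-45866931. The Grin2d window follows a RefSeq start that lies inside the gene as GENCODE annotates it, whose minus-strand start is at 45878378.
Grin2c: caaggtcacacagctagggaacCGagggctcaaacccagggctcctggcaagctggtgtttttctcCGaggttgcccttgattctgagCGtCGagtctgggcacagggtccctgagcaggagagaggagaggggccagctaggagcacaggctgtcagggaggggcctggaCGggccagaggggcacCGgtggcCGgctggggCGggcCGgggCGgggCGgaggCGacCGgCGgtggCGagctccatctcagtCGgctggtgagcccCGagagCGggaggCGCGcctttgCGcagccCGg
Grin1: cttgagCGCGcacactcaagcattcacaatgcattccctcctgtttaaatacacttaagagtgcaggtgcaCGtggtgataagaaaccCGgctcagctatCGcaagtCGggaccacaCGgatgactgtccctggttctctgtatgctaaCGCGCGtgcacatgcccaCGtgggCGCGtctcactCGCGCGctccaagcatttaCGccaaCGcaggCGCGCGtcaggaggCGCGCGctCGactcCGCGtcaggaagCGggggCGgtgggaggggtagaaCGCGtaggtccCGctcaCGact
Grin2d: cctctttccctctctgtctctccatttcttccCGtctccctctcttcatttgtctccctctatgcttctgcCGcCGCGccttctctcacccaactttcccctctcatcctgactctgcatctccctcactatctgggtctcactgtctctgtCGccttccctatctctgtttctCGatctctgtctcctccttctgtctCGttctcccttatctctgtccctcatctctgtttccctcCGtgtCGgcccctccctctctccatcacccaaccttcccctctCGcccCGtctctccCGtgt
The Grin1 window held 33 CpGs, Grin2c 22 and Grin2d 12, against a median of 7 over 32851 promoters, and 8.56%, 23.1% and 39.6% of promoters held at least as many. The GC box letters GGGCGG, searched on both strands, occurred 3 times in the Grin2c window and 1 time in that of Grin1, and were in 35.7% of all promoters. None of these 3 windows held TATAAA (13.6% of promoters), TGACGTCA (the CRE, 1.79%) or TTCAGCACC (letters from the RE1 element that REST binds, 0.371%) on either strand.

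**Figure D2:**
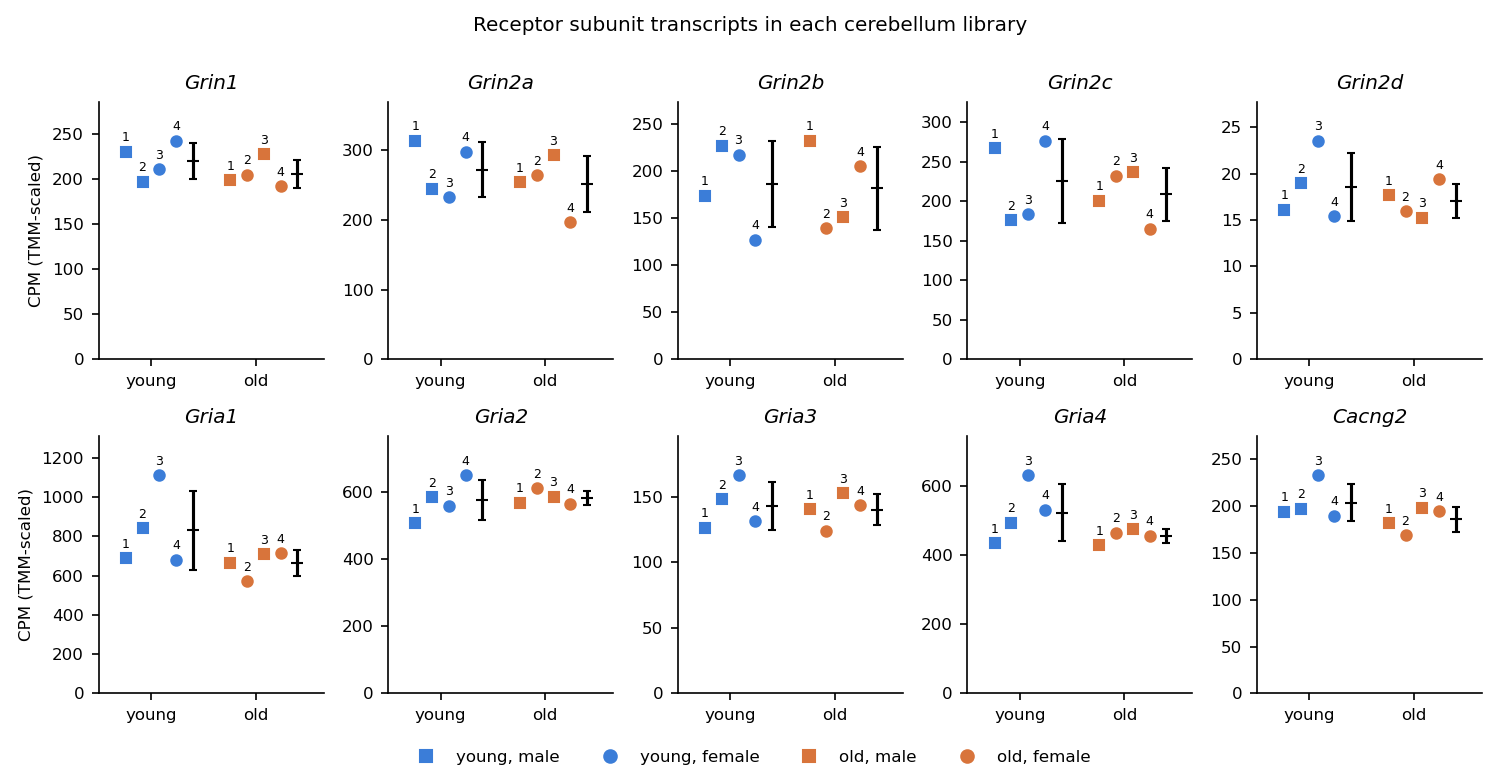
CPM of each gene in each library, young left and old right, numbered by replicate, with squares for males and circles for females; bars are the mean ± SD of 4. Young and old values overlap for all 10 genes, and Grin2b runs opposite to Grin2c.

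Among the AMPA subunits, Gria1 (chromosome 11, 57011387 to 57330244) varied most. It had 688, 842, 1111 and 681 CPM in young 1 to young 4 and 665, 572, 710 and 712 CPM in old 1 to old 4. Young 3 lay far above the others and old 2 was lowest, and 97.6% of 165 genes of like level varied no more. Gria4 (chromosome 9, 4417896 to 4796234) had 434, 494, 632 and 532 CPM in the young libraries and 429, 465, 476 and 457 CPM in the old, again with young 3 highest.

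Gria2 (chromosome 3, 80681450 to 80802835) was steadier, at 508 to 651 CPM in young and 566 to 612 CPM in old libraries. Gria3 (chromosome X, 41400854 to 41678601) ranged from 126 to 166 CPM in young and 124 to 153 CPM in old libraries. Cacng2 (chromosome 15, 77991748 to 78120028) had 190 to 233 CPM in young and 169 to 198 CPM in old libraries. Gria3 and Cacng2 were both highest in young 3 and lowest in old 2, as was Gria1. The astroglia marker score, the median deviation of the log2 CPM of 15 Bergmann glia and astrocyte genes from their 8-library mean, was also highest in young 3 (0.32) and lowest in old 2 (-0.25). The interneuron and Purkinje cell scores, made in the same way, were highest in young 3 too (0.22 and 0.20). No receptor gene's slope on any of these 3 scores passed adjustment with all 8 libraries in the fit. In RNA of whole tissue, fewer cells of a type and less RNA per cell cannot be told apart.

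The study's title concerns hydroxymethylation of gene bodies and the size of transcriptional change in ageing, and its main comparison is of old with young mice. None of the 10 receptor genes passed, and the old and young values overlapped for all 10. The quasi-likelihood test of edgeR, fitted with a term for sex and Benjamini-Hochberg adjusted over the whole table, was used; 0 of 10 were called, against 17 of 14191 genes (0.12%). DESeq2 and limma-voom also called 0 of the 10. At an unadjusted p under 0.05, 0 of 10 were called against 11% of all genes, and the old and young values of 6.57% of all genes did not overlap.

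The largest age differences were in Gria1 and Gria4. Mean Gria1 was 665 ± 65.7 CPM in the old mice (SD, n = 4) against 830 ± 201 CPM in the young (SD, n = 4), a log2 difference of -0.32 ± 0.16 (SE, 95% interval -0.67 to 0.03, edgeR adjusted p = 0.501). Gria4 had 457 ± 20.0 and 523 ± 83.2 CPM, a log2 difference of -0.19 ± 0.09 (-0.39 to 0.02, edgeR adjusted p = 0.501). With each library left out, these differences ran from -0.42 to -0.13 for Gria1 and from -0.25 to -0.11 for Gria4. Both were smallest without young 3. The intervals of the other 8 genes ran from -0.54 at the lowest (Grin2b) to 0.47 at the highest (Grin2b), and no interval of the 10 reached a log2 difference of 1 either way.

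Among the NMDA subunits the log2 difference of old minus young was -0.10 (-0.29 to 0.09) for Grin1, -0.12 (-0.39 to 0.16) for Grin2a and -0.12 (-0.53 to 0.29) for Grin2c. It was -0.03 (-0.54 to 0.47) for Grin2b and -0.11 (-0.45 to 0.23) for Grin2d. Gria2 and Gria3 stood near zero, at 0.02 (-0.16 to 0.20) and -0.03 (-0.25 to 0.19), and Cacng2 at -0.13 (-0.32 to 0.06). In all, 9 of the 10 values were negative with a median of -0.11, where 51.4% of all genes were negative with a median of -0.0056. When a score of granule neuron markers was added to the fit, the Grin2a and Grin2c differences turned to 0.03 and 0.10, while those of Grin2b, Grin2d and Gria1 became -0.25 ± 0.10, -0.24 ± 0.13 and -0.41 ± 0.15, and none of the 10 passed (edgeR adjusted p from 0.289 to 0.949).

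**Figure D3:**
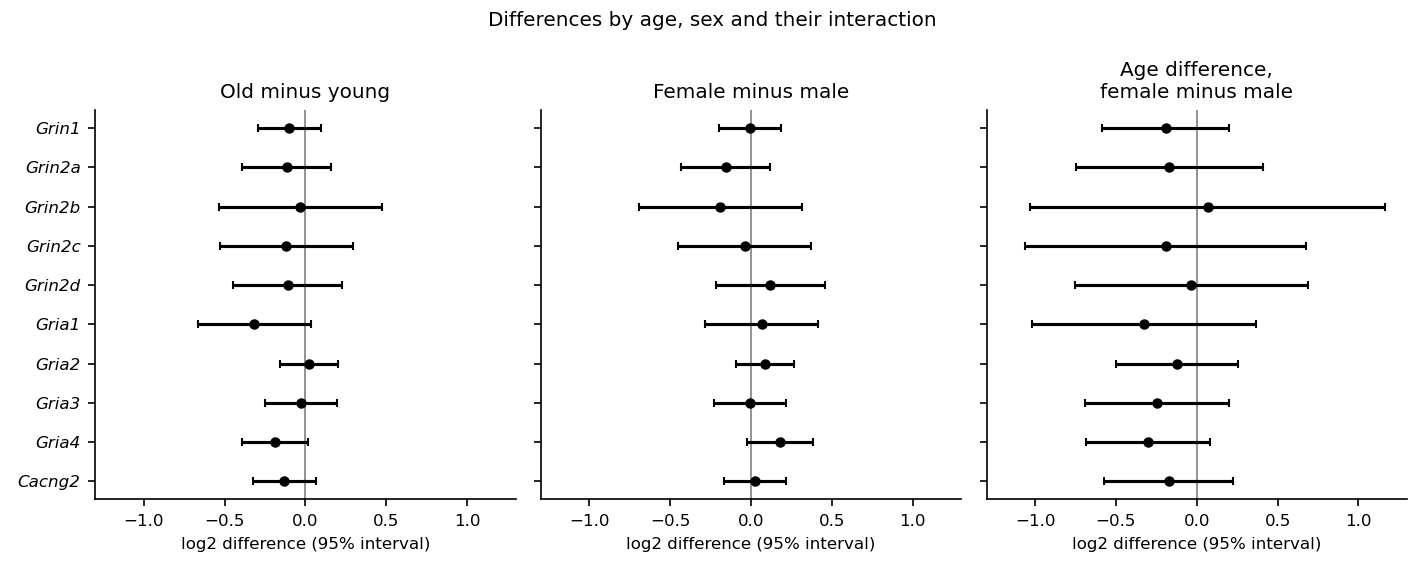
Log2 differences of the 10 genes with 95% intervals for age (old minus young), sex (female minus male) and their interaction. Every interval spans zero, and those of Grin2b, Grin2c and Gria1 are among the widest for age.

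No receptor gene passed the same test between female and male libraries. The call count was 0 of 10 against 6 of 14191 genes (0.0423%), and 0 of 10 at an unadjusted p under 0.05, where 4.76% of genes passed. Gria4 had the smallest p, with a log2 difference of 0.18 (female minus male, -0.03 to 0.38). The X-linked Gria3 differed by -0.0065 (-0.23 to 0.22) and Gria2 by 0.09 (-0.09 to 0.27). The difference of the age difference between the sexes rested on 2 mice per sex and age. For it edgeR called 0 of 10 receptor genes and 0 of all genes (0%), DESeq2 called 0 of 10 and 1 gene in all, and 0 of 10 against 2.3% of genes had an unadjusted edgeR p under 0.05. Its intervals were wide, such as -1.03 to 1.16 for Grin2b.

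Ratios of 2 subunits within a library do not depend on how libraries are scaled, and they showed the same picture. The count ratio of Grin2c to Grin2b was 1.54, 0.775, 0.844 and 2.17 in young 1 to young 4 and 0.863, 1.66, 1.57 and 0.805 in old 1 to old 4. At each age 2 libraries lay near 0.8 and 2 at 1.5 or above, a 2.80-fold range that crossed both ages and both sexes. Grin2a to Grin2b behaved alike, from 0.962 in old 4 to 2.34 in young 4, whereas Grin2c to Grin2a stayed between 0.718 and 0.927. The old minus young log2 difference of the Grin2c to Grin2b ratio was -0.07 (exact two-sided permutation over 70 regroupings, p = 0.943, adjusted p = 0.943 over 9 ratios).

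Of the 9 ratios, Gria4 to Gria2 alone separated the ages. It was 0.854, 0.843, 1.13 and 0.817 in young 1 to young 4 and 0.754, 0.759, 0.811 and 0.807 in old 1 to old 4, so that old 3 and young 4 nearly met. The log2 difference was -0.21 (exact two-sided permutation p = 0.0286, the smallest that 4 against 4 can give, adjusted p = 0.257). With each library left out it ran from -0.25 to -0.10, the latter without young 3. Gria1 to Gria2 differed by -0.32 with overlap (exact permutation p = 0.2, adjusted p = 0.771), and no ratio passed after adjustment.

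**Figure D4:**
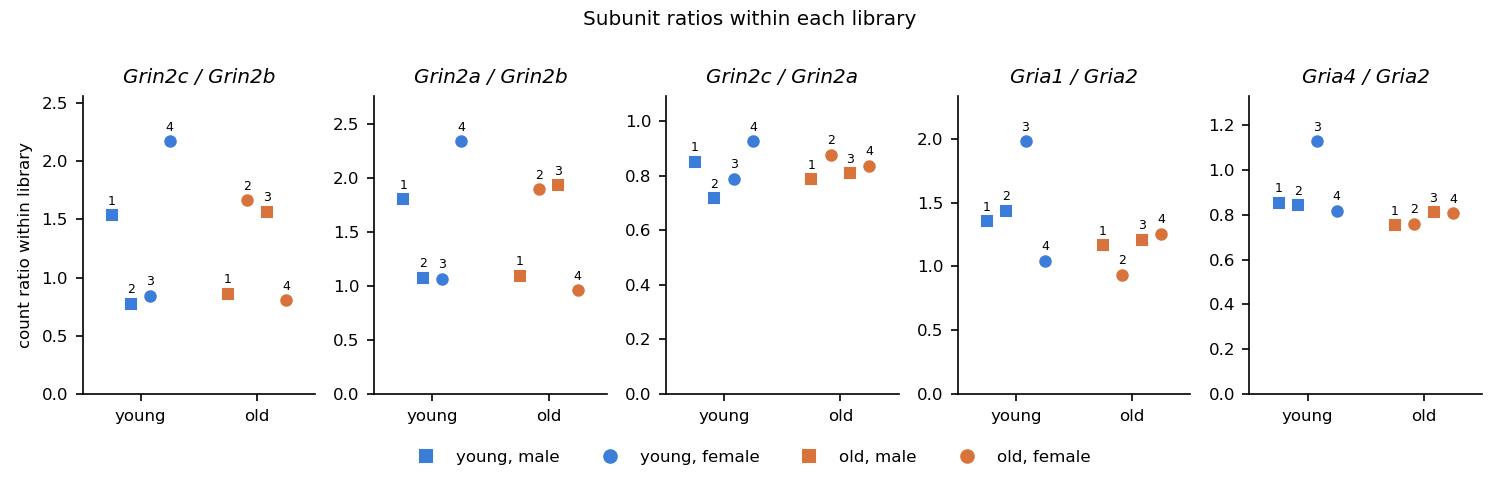
Count ratio of subunit pairs within each library, young left and old right, numbered by replicate. Grin2c to Grin2b and Grin2a to Grin2b each take low and high values at both ages, Grin2c to Grin2a stays between 0.718 and 0.927, and young 3 is highest for Gria1 to Gria2 and Gria4 to Gria2.

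Grin2c and Grin2a rose, and Grin2b fell, with the granule neuron markers across libraries, and each age held libraries with high and low scores. The score of 14 granule neuron markers, none of them a receptor subunit, was 0.19, -0.23, -0.045 and 0.39 in young 1 to young 4 and -0.15, -0.0026, 0.11 and -0.31 in old 1 to old 4. In a fit over all genes with terms for age and sex, added after the values had been seen, Grin2c rose by 1.25 ± 0.18 log2 units (SE) per unit of score (edgeR adjusted p = 0.00297). Grin2a rose by 0.87 ± 0.16 (edgeR adjusted p = 0.00934) and Grin2b fell by 1.37 with SE 0.25 (edgeR adjusted p = 0.0092). The score spanned 0.698 units in all. In this fit 3 of 10 receptor genes were called, against 808 of 14191 genes (5.69%). The 2 called higher compare with 2.13% of genes, and the 1 called lower with 3.57%.

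Grin1 had a slope of 0.51 ± 0.16 (edgeR adjusted p = 0.0688) and Grin2d one of -0.79 ± 0.31 (adjusted p = 0.149), so neither passed. By limma-voom Grin1 did pass (0.49 ± 0.14, adjusted p = 0.0446). The AMPA genes had slopes of -0.64 ± 0.36 (Gria1), 0.15 ± 0.18 (Gria2), -0.30 ± 0.22 (Gria3), -0.06 ± 0.21 (Gria4) and -0.18 ± 0.20 for Cacng2, none past the test. The slopes of Grin1, Grin2a and Grin2c stayed positive and those of Grin2b and Grin2d negative with each library left out. Without young 4, which had the highest score, none of the 10 passed, with slopes of 1.303 for Grin2c, 0.95 for Grin2a and -1.34 for Grin2b. Without old 3 Gria1 passed as well (-1.02 ± 0.26, edgeR adjusted p = 0.0405). Grin2a also failed without old 4 and without young 2, Grin2b failed with no terms for sex and age (edgeR adjusted p = 0.0579), and without old 2, old 3 and young 4 together none passed.

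**Figure D5:**
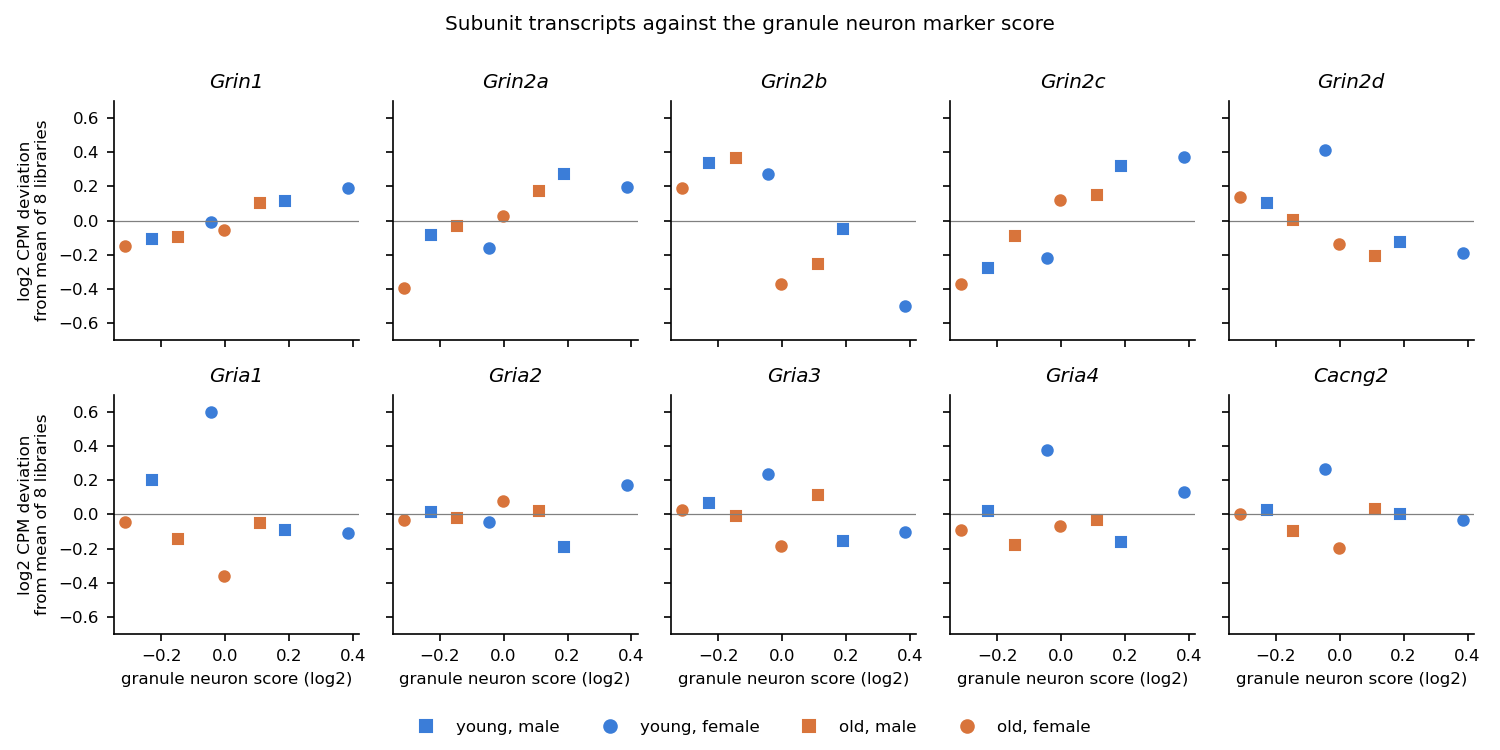
Deviation of each gene's log2 CPM from its mean over 8 libraries against the granule neuron marker score, 1 point per library, coloured by age with squares for males and circles for females. Grin2a and Grin2c rise and Grin2b falls along the score, with both ages spread along it.

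The same 3 genes were called, with opposite signs, on the score of 8 oligodendrocyte precursor markers. That score was 0.19, 0.40, 0.14 and -0.31 in young 1 to young 4 and 0.12, -0.17, -0.25 and 0.16 in old 1 to old 4. Grin2b rose by 1.31 ± 0.24 per unit, while Grin2c and Grin2a fell by 1.08 and 0.78 (edgeR adjusted p = 0.0114, 0.0183 and 0.0261), beside 755 of 14191 genes (5.32%; 3.76% higher and 1.56% lower). Without old 4, and without young 2, Grin2b alone of the 10 passed, Grin2a was lost without young 3, and no receptor gene passed without young 4. The granule neuron and precursor scores had opposite signs in 6 of 8 libraries, and their separate parts in the receptor values were not tested. The score of 10 oligodendrocyte markers, like the precursor score, was highest in young 2 (0.48) and lowest in young 4 (-0.38). It was -0.033 and 0.18 in young 1 and young 3 and 0.055, -0.095, -0.34 and 0.14 in old 1 to old 4. No slope on it was fitted, so whether the calls are particular to precursors was not tested.

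On the Purkinje cell, interneuron, and Bergmann glia and astrocyte scores 0 of 10 were called, as were 0 of all genes (0%), by edgeR. On the choroid plexus score 0 of 10 were called against 0.366% of genes. At an unadjusted p under 0.05, 5 of 10 passed on the interneuron score against 7.03% of genes. They were Gria1, Gria3, Gria4 and Cacng2 with positive slopes and Grin2c with a negative one (-1.53). On the astroglia score 5 of 10 passed at that threshold against 6.49% of genes (Grin2b, Grin2d, Gria1, Gria3 and Cacng2, all with positive slopes). On the Purkinje cell score 0 of 10 did against 10.9%, and on the choroid plexus score 0 of 10 against 4.38%. Of the 10, Gria1 had the smallest p on both the astroglia and the interneuron score. Its slope was 1.66 ± 0.34 on the astroglia score (unadjusted p = 0.00043, adjusted p = 0.597 by edgeR). On the interneuron score it was 1.95 ± 0.35 (unadjusted p = 0.000198, adjusted p = 0.313 by edgeR). Without old 3, 4 of 10 receptor genes were called on the interneuron score and 2 on the astroglia score, beside 930 and 186 of all genes. On the interneuron score Grin2b and Gria1 had slopes of 2.64 and 2.19, and Grin2c and Grin2a slopes of -2.49 and -1.59. On the astroglia score Grin2b and Gria1 had slopes of 2.12 and 1.71. Young 3 had the highest value of both scores (0.22 and 0.32). The score of the 3 brainstem neuron genes was 1.74, 1.86, -1.48 and -1.73 in young 1 to young 4. In old 1 to old 4 it was 1.85, 0.41, -1.73 and -0.55. Of the 8 brainstem genes listed, 6 had no counts in some library. The 3 in the score summed to as little as 2.04 CPM in old and 1.68 CPM in young libraries, so its lowest values rest on few counts. The part of this score in the receptor values was not tested.

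No gene of 7 lists of other glutamate pathway genes passed for age, in either direction, by the same edgeR test, beside 17 of 14191 genes (0.12%). The 3 genes with the smallest p of each list are given as log2 differences, old minus young, with SE. Of all genes, 51.4% had negative differences, with a median of -0.0056. Among 11 other NMDA subunits and regulators 6 had negative differences, with a median of -0.0046, and the smallest p values belonged to Ppp1r9b, the spine scaffold spinophilin, at -0.29 ± 0.08, the kinase gene Fyn at -0.15 ± 0.08 and Ptk2b at 0.34 ± 0.22. Of 9 kainate and delta receptor genes 7 were negative, with Grik5 at -0.13 ± 0.10, Grik2 at 0.16 ± 0.12 and Grid1 at -0.15 ± 0.14. Of 7 metabotropic receptors 6 were negative, with Grm4, the presynaptic receptor of granule neurons, at -0.37 ± 0.22, Grm3 at -0.20 ± 0.13 and Grm2 at -0.26 ± 0.18.

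Most AMPA receptor partners had negative differences, none past the test, where 51.4% of all genes were negative. Of 21 auxiliary subunits and assembly factors 18 were negative, with a median of -0.18. Cacng8, a relative of stargazin, stood at -0.57 ± 0.17, Prrt2 at -0.54 ± 0.18 and Shisa9 at -0.37 ± 0.13. All 12 trafficking and clustering genes tested were negative, with a median of -0.11, among them the immediate early gene Arc at -0.31 ± 0.10, the pentraxin Nptx2 at -1.27 ± 0.45 and Epb41l1 at -0.15 ± 0.08. Nptx2 had few counts, with a mean of 0.863 CPM in old and 2.12 CPM in young libraries, where 3 counts are 0.421 to 0.511 CPM. Of 20 scaffold and kinase genes 17 were negative (median -0.10), with Dlg4 (PSD-95) at -0.25 ± 0.08, Iqsec2 at -0.32 ± 0.11 and the calmodulin-dependent kinase Camk2b at -0.24 ± 0.10. Of 10 glutamate transport and recycling genes 7 were negative (median -0.12), with the Purkinje cell transporter Slc1a6 at -0.39 ± 0.15, Slc17a7 at -0.37 ± 0.17 and the Bergmann glia transporter Slc1a3 at -0.19 ± 0.12. The granule neuron, Purkinje cell, astroglia, oligodendrocyte precursor and interneuron scores also had negative mean differences, old minus young. These differences were -0.163, -0.144, -0.161, -0.143 and -0.050, with overlap between the ages. The choroid plexus score had one of 1.005, also with overlap, and the microglia score did not overlap, at 0.16 to 0.998 in old and -0.55 to -0.17 in young libraries (235 to 475 against 145 to 188 summed CPM of 12 markers). The part of these scores in the pathway values was not tested. Slc17a7, Slc1a6, Slc1a3 and Grm2 are themselves among the markers of these scores.

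The genes whose pattern over the 8 libraries lay closest to a receptor gene were found by the root mean square difference of deviations scaled to unit SD, where 0 is an identical pattern, among 11049 genes whose log2 CPM averaged 3 or more. Closest to Grin2c were Speg (0.154), Wdr83 (0.171) and the potassium channel gene Kcnc1 (0.182). Closest to Grin2a were Rab15 (0.189), Trpv2 (0.197) and Rnf122 (0.239), and to Grin1 Tmem145 (0.188), the calcium-releasing channel gene Tpcn1 (0.204) and the pentraxin Nptx1 (0.207). Grin2b lay closest to Prickle2 (0.114), Ildr2 (0.169) and Dapk1 (0.17), a kinase gene in the list of NMDA receptor regulators. Grin2d lay closest to Plcb1 (0.185), Ndrg2 (0.28) and Grin3a (0.284), another NMDA subunit gene.

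Gria1 lay closest to Sfxn5 (0.156), Ctnnb1 (0.212) and Plpp3 (0.233). Cacng2 lay closest to Ap2b1 (0.224), Slc1a3 (0.252) and Aldoc (0.269), the last 2 from the list used for the astroglia score. Among the receptor genes themselves the closest pair was Gria1 and Cacng2 (0.299), followed by Grin2a and Grin2c (0.351), and the farthest was Grin2b and Grin2c (1.78). Gria2 was nearest to Tbpl1 (0.276), Polr2d (0.301) and Rfwd3 (0.306). Gria4 was nearest to Napg (0.285), Gabra2 (0.321) and Prex2 (0.343).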

How the data were processed

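Each library was made from total RNA of 1 mouse cerebellum. The authors deposited whole-number counts per gene, without normalization. Per the submitters' processing notes, the tools used included Trimmomatic 0.39, STAR 2.7.5b, SAMtools 1.10 and featureCounts, with the GRCm38/mm10 genome. For the gene annotation, strand setting and multi-mapping reads, the choice is not given in the sources used here. In 7 of the 8 files, dates stood in place of 24 gene names, and the files were joined by row, which touches no receptor gene. Groups, sex and age came from the sample labels, since the design text describes other tissue and ages.

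Counts were filtered with filterByExpr (minimum count 10, over the age-by-sex groups), scaled by TMM (factors 0.966 to 1.03) and tested for all 14191 genes with edgeR 4.0.16 (robust quasi-likelihood, terms for age and sex) in R 4.3.3. Adjustment was by Benjamini-Hochberg over the whole table, with a threshold of 0.05. The interaction was a contrast over the 4 age-by-sex groups. Total counts of 6079485 to 7236720 put a floor of 3 counts at 0.421 to 0.511 CPM, which covers counting error only. The library pairs showed no duplicate deposit. Ratios used counts plus 0.5 and an exact permutation over samples. Lengths came from GENCODE M21 (GRCm38), which matched 17587 of 17700 genes, and promoters from RefSeq (GRCm38.p6).

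The receptor genes, marker lists and pathway lists were chosen with earlier results of these data known. The score fits were added after the values had been seen. Named were all 10 receptor genes, the 3 genes with the smallest age p in each pathway list, any pathway gene past the age test, and the 3 genes nearest in pattern to each receptor gene, except that those nearest to Gria3 are not reported here. Genes called on the granule neuron score were named after their values were seen. The fits were tested on simulated data. Alternatives were DESeq2 1.42.0 (size factors or Wald test), limma-voom (limma 3.58.1) with quality weights, no filter or at least 50 counts in 4 libraries, older dispersions, no term for sex, a replicate block, age in weeks, marker scores as covariates, other lengths and pseudocounts, and leaving out libraries. Same-numbered old and young libraries did not deviate together, so the numbers were not taken as pairs. The design text calls the samples biological replicates, and each label describes 1 animal's sex and age.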

Additional observations from a re-analysis of the deposited data

Results flagged for a closer look

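The log2 ratio of Gria4 to Gria2 counts was 0.17 in young 3, apart from the other 3 young libraries. The gap to the nearest of them was 0.862 of the range of the group, above Dixon's critical value at 95% for 4 samples. Across the 38 groups of 4 examined, chance flags about 1 in 20. Gria1 to Gria2 was also highest in young 3, at 1.98.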

How the results depend on the processing

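No receptor gene passed for age, sex or their interaction under any alternative tried, including each library left out. The number of all genes called for age, 17, was 125 by the DESeq2 Wald test, 1 by limma-voom, 26 with older dispersions, 103 with age in weeks, 128 with the granule neuron score and 0 with the choroid plexus score as covariate, 184 without old 2, old 3 and young 4, and 0 to 63 with each library left out. For sex it was 4 to 46 and for the interaction 0 to 2 with each library left out, and 1 for the interaction by the DESeq2 Wald test. On the granule neuron score, 808 genes in all became 1322 by limma-voom, 430 with no terms for sex and age, 2 without old 2, old 3 and young 4, and 23 to 962 with each library left out, and the receptor genes called were 0 without those 3 libraries and 0 to 4 with each library left out. With each library left out, genes called were 0 to 90 on the Purkinje cell score, 0 to 930 on the interneuron score (0 to 4 receptor genes), 0 to 186 on the astroglia score (0 to 2), 100 to 790 on the precursor score (0 to 3) and 16 to 54 on the choroid plexus score. The causes were not tested.

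With the replicate number as a block, 1 gene in all was called for age, and the sex difference turned to 0.017 for Grin2c and -0.0019 for Gria2; no receptor gene was called. The same-number correlations were 0.16, -0.22, -0.05 and -0.25, within the range of those between unlike numbers (-0.49 to 0.48). Whether same-numbered samples shared a batch was not tested.

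Directions turned for age in Grin2b with age in weeks (0.018) and without old 2, old 3 and young 4 (0.084), in Grin2a and Grin2c with the granule neuron score as covariate (0.029 and 0.10) and in Gria3 with the choroid plexus score (0.043), and for sex in Grin1 by limma-voom (0.0093). The slope on the granule neuron score turned in Gria4 with no terms for sex and age (0.13), and in Gria2 (-0.47) and Cacng2 (0.013) without old 2, old 3 and young 4. With each library left out, differences that turned ran for age from -0.18 to 0.13 (Grin2b), -0.25 to 0.030 (Grin2c), -0.23 to 0.020 (Grin2d), -0.028 to 0.076 (Gria2) and -0.093 to 0.065 (Gria3). For sex they ran from -0.071 to 0.052 (Grin1), -0.19 to 0.068 (Grin2c), -0.013 to 0.24 (Grin2d), -0.13 to 0.16 (Gria1), -0.10 to 0.059 (Gria3) and -0.055 to 0.081 (Cacng2). For the interaction they ran from -0.40 to 0.024 (Grin2a), -0.27 to 0.50 (Grin2b), -0.52 to 0.13 (Grin2c), -0.32 to 0.28 (Grin2d) and -0.64 to 0.066 (Gria1). Slopes on the granule neuron score ran from -0.084 to 0.44 (Gria2) and -0.29 to 0.086 (Gria4), and log2 ratios from -0.24 to 0.14 (Grin2a to Grin2b), -0.28 to 0.21 (Grin2c to Grin2b), -0.16 to 0.038 (Grin2d to Grin2b), -0.047 to 0.075 (Grin2c to Grin2a) and -0.15 to 0.039 (Gria3 to Gria2). Depth limits Grin2d most, with as few as 97 counts in a library.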

Other observations

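Genes of the same pathway were also called on the granule neuron score, by the same edgeR fit and Benjamini-Hochberg adjustment, beside the 808 of 14191 genes (5.69%) called in all. The largest positive slope was that of Grm4, the presynaptic metabotropic receptor of granule neurons, at 1.52 ± 0.16 log2 units per unit of score (SE, adjusted p = 0.000475). The pentraxins Nptx1 (0.999 ± 0.18) and Nptxr (0.67 ± 0.16), which cluster AMPA receptors, also rose, as did Prrt1 (0.93 ± 0.21), Porcn (0.93 ± 0.21), Olfm1 (0.73 ± 0.18) and Iqsec2 (0.71 ± 0.19). The vesicular transporter Slc17a7, itself among the 14 markers of the score, rose by 1.19 ± 0.16.

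Genes that fell along the score included the AMPA auxiliary subunit Cnih3 (-2.43 ± 0.41), the receptor genes Grm8 (-1.39 ± 0.31), Grm3 (-0.81 ± 0.21) and Grik3 (-0.80 ± 0.22), and the kinase genes Dapk1 (-1.33 ± 0.30) and Camk2a (-1.14 ± 0.25). Slc1a2, the astrocyte glutamate transporter, and Glul, glutamine synthetase, fell as well (-0.82 ± 0.21 and -0.66 ± 0.17). By list, called genes were 3 of 7 metabotropic receptors (1 higher, 2 lower), 3 of 10 transport and recycling genes (1 higher, 2 lower), 4 of 21 AMPA auxiliary subunits and assembly factors (3 higher, 1 lower) and 2 of 12 trafficking genes (both higher). They were 2 of 20 scaffold and kinase genes (1 higher, 1 lower), 1 of 11 other NMDA genes (lower) and 1 of 9 kainate and delta genes (lower). The 1 transport and recycling gene called higher was Slc17a7, a marker of the score itself, so its call is not a separate result. These calls were not examined with each library left out.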
